A study of Mus musculus with 18 samples.

Results

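Gene symbols that end in Rik are provisional names given to mouse transcripts found by the RIKEN full-length cDNA project and not yet named for a function. On these arrays 1210 of the 17097 genes with 1 symbol carried such a name. The 304 with a mean log2 level of at least 6.5 over the 18 arrays (25.1% of the 1210) are described here, each measured on 1 probe set, that of the highest mean over arrays. They were chosen by the ending of the symbol and by their level, so the level is given as a description. The rule used no difference between fractions or genotypes, but a mean over all arrays can be reached through 1 fraction. All 3 fraction means were at 6.5 or above in 251 of the genes, 2 of them in 44 and 1 in 9, which was ELUTED in 6 and WASH in 3. Their mean levels ran from 6.51 to 12.32 with a median of 7.32. Just inside the threshold lay 4931413K12Rik and 4933428G20Rik, both at 6.51, and just outside it lay 1700125H20Rik and C330024D21Rik, at 6.499 and 6.495.

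The arrays came from cortex and striatum, dissected together, of 6 mice aged 6 weeks: 2 WT animals, 2 CPEB4 GT/+ animals that carried the GT allele of Cpeb4 on 1 chromosome, and 2 CPEB4 KO animals. How the alleles were made was not given in the sources used here. Each animal's total RNA was hybridised as such (INPUT) and after binding to poly(U) agarose, from which 25% formamide released RNA enriched for short poly(A) tails (WASH) and 90% formamide released RNA enriched for long tails (ELUTED). The RNA of all groups was amplified over 21 cycles from 5 ng before labelling.

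By RefSeq, 139 of the 304 genes are long noncoding RNAs (lncRNAs), 110 are protein coding, 11 are pseudogenes and 4 are other RNAs, and 40 had no match. A poly(A) tail is added to mRNAs and to most lncRNAs in the nucleus, and in the cytoplasm it is shortened by deadenylases and can be lengthened again by polymerases that CPEB proteins help to recruit. Many lncRNAs stay in the nucleus and are not translated, whereas the tails of translated mRNAs are worn down over their lifetime. Some lncRNAs serve as hosts whose introns are processed into small nucleolar RNAs (snoRNAs), which guide the modification of ribosomal RNA, or whose transcripts are cut into microRNAs.

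The deposited values are on a log2 scale that was normalised between arrays, so each difference is relative to the other genes and says nothing of total amounts. WASH arrays had a wider spread of values (SD 1.96 to 2.01 across probe sets) than ELUTED arrays (1.78 to 1.90), and the 3′ minus 5′ difference of the Actb control probe sets, a sign of RNA integrity and amplification, ran from -0.21 to -0.06 in WASH, from -0.47 to -0.31 in ELUTED and from -0.48 to -0.41 in INPUT. The part of either in the fraction differences was not tested. The 3 pan-neuronal markers were measured at 10.25 to 12.80 in INPUT and the 5 striatal projection neuron markers at 6.70 to 10.94, and markers of neighbouring regions were also above the filter: 4 of 4 of the hypothalamus, 2 of 2 of the choroid plexus, 2 of 3 of the pituitary and 2 of 3 of the cerebellum. Of 4 testis genes 3 were also above the filter: Prm1, Prm2 and Tnp2, with mean levels of 7.42, 6.06 and 7.51. Their ELUTED minus WASH differences (log2) were 0.90, 0.47 and 0.49. Whether a value above the filter or the level threshold reflects expression in the dissected tissue was not tested. Xist lay at 10.65 to 10.90 on all 6 INPUT arrays, and the 3 Y-linked genes looked at lay below the filter at 5.52.

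The first comparison asked on which side of the tail-length split each RIKEN-named transcript lay, as ELUTED minus WASH within each animal. In this comparison 139 of the 304 genes were higher in ELUTED and 100 were lower, against 73.4% called in either direction, 24.9% higher and 48.5% lower of the 12822 genes tested (limma, Benjamini-Hochberg adjusted p under 0.05). The median log2 difference of the RIKEN-named genes was 0.15 and that of the 9699 other genes at a level of at least 6.5 was -0.29. The median of each animal was above 0, from 0.06 to 0.22, and that of the other genes was below 0 in each animal, from -0.43 to -0.18. The position relative to 0 is set by the scaling: when the hybridisation controls set the array scale the RIKEN-named median turned to -0.34 and the median of all genes moved from -0.18 to -0.67.

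The RIKEN-named genes were also compared with other genes of the same mean level, in bins 0.5 wide, since low values lay more towards ELUTED on these arrays. A RIKEN-named gene lay at a median of 0.27 above the other genes of its bin, from 0.19 to 0.40 in the 6 animals (mean 0.28 ± 0.09, SD, n = 6). Other genes weighted to the same levels were higher in 23.2% and lower in 51.1%. The gap was present from the lowest bin (6.5 to 7, medians of 0.29 for 100 RIKEN-named genes and 0.01 for 1323 others) up to the bin from 9.5 to 10 (medians of -0.03 for 11 and -0.36 for 751). At 10 and above it was turned, with -0.37 for 13 RIKEN-named genes and -0.22 for 1496 others.

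**Figure D1:**
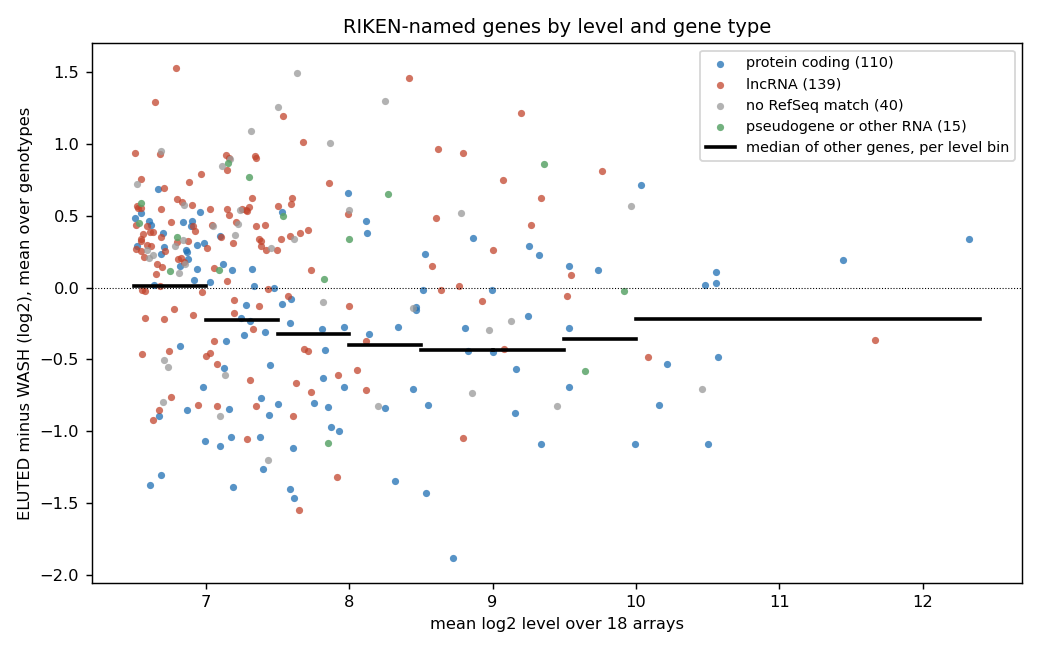
ELUTED minus WASH (log2, mean over genotypes, vertical axis) of the 304 RIKEN-named genes against mean log2 level over 18 arrays (horizontal axis), coloured by RefSeq gene type. Black bars are the medians of other genes in each level bin, from 0.01 at the lowest level to -0.44 at 8.5 to 9. Most lncRNAs between 7 and 8 lie above the bars, and the coding genes lie on both sides of them.

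Gene type divided the set. Of 139 lncRNAs 80 were higher in ELUTED and 30 were lower, with a median of 0.30, and of 110 protein coding genes 27 were higher and 56 lower, with a median of -0.24. The lncRNAs lay 0.41 above other genes of the same level, and the coding genes 0.07 above other coding genes of the same level. The lncRNA median was above the coding median in 6 of 6 animals, by 0.26 to 0.80 (mean 0.49 ± 0.21, SD, n = 6). The 40 genes without a RefSeq match (23 higher and 12 lower, median 0.28) and the 11 pseudogenes (6 higher and 2 lower, median 0.34) lay nearer to the lncRNAs.

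The distance between the types was not the same at each level, and this was not tested. Between 6.5 and 7 the medians were 0.32 for 54 lncRNAs and 0.26 for 29 coding genes. Between 7 and 8 they were 0.32 for 61 lncRNAs and -0.44 for 41 coding genes, and at 8 and above 0.05 for 24 and -0.28 for 40. So the distance between the types lay at levels of 7 and more, while near the threshold coding and noncoding RIKEN-named genes had similar medians, both above the 0.01 of other genes there. The median level was 7.16 for the lncRNAs and 7.56 for the coding genes.

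Other groups of genes are given beside the RIKEN-named lncRNAs, with no test between them. The 107 lncRNAs at the same level without a Rik symbol had 56 higher, 30 lower and a median of 0.25, and the 74 genes named Gm with a number, another provisional naming scheme that includes coding genes, had 44 higher, 19 lower and a median of 0.37. A list of 16 well known lncRNAs, among them Malat1 (0.76), Kcnq1ot1 (1.55) and Neat1 (-0.63), had 6 higher, 5 lower and a median of 0.07. The 279 tested RIKEN-named genes of any type below the level threshold had 183 higher and 26 lower with a median of 0.31. Other genes below the threshold are not given beside them, and low values lay more towards ELUTED on these arrays.

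**Figure D2:**
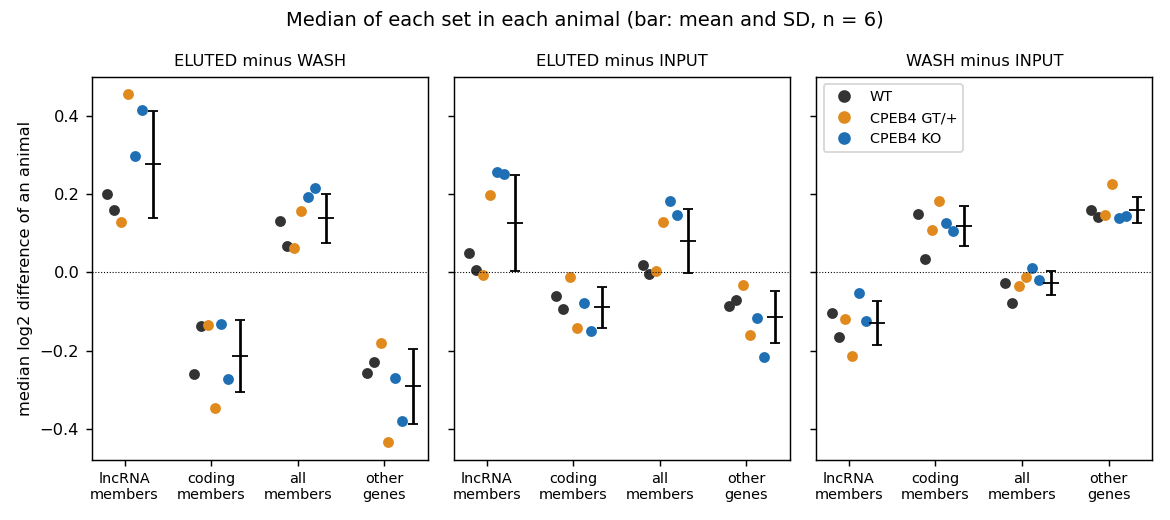
Median log2 difference of each animal (1 point per animal, coloured by genotype) for the lncRNA, the coding and all RIKEN-named genes and for other genes at the same level, in 3 panels for ELUTED minus WASH, ELUTED minus INPUT and WASH minus INPUT. Bars are the mean and SD of 6 animals. For ELUTED minus WASH the lncRNA medians lie between 0.13 and 0.45 and the coding medians between -0.34 and -0.13.

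Each fraction was then set against INPUT. In ELUTED minus INPUT 88 of the 304 genes were higher and 68 lower, against 44.1% of all genes in either direction, 14.6% higher and 29.5% lower, and the medians were 0.11 for the RIKEN-named and -0.11 for the other genes at that level. In WASH minus INPUT 95 were higher and 105 lower, against 64.6% of all genes in either direction, 45.1% higher and 19.5% lower, and the medians were -0.04 and 0.16. Both fractions were set against the same INPUT arrays, so the 2 comparisons are not independent. On the scale of the hybridisation controls these RIKEN-named medians turned to -0.11 and 0.23, while those of all genes moved from -0.04 to -0.26 and from 0.11 to 0.38. The lncRNAs had 43 higher and 20 lower in ELUTED and 33 higher and 65 lower in WASH, with medians of 0.15 and -0.14. The coding genes had 23 higher and 38 lower in ELUTED and 50 higher and 16 lower in WASH, with medians of -0.09 and 0.09. Without WT animal 1, 35 of the 304 genes were called higher in ELUTED over INPUT.

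The 10 transcripts with the largest differences towards ELUTED were 6 lncRNAs and 4 genes without a RefSeq match. The lncRNA 5530401A14Rik had the largest. Its ELUTED minus WASH difference was 1.23 and 1.40 in the WT animals, 1.64 and 1.54 in the CPEB4 GT/+ animals and 1.54 and 1.83 in the CPEB4 KO animals, with a fitted mean of 1.53 (SE 0.08, limma adjusted p = 3.93e-05). Its level was 6.79 to 7.38 in INPUT, 5.64 to 5.94 in WASH and 7.02 to 7.48 in ELUTED. The WASH values lay near the filter at 5.52 and the highest mean of the nonspecific control probe sets, 5.61. WASH arrays lay below all the others and ELUTED overlapped with INPUT. The lncRNA 9530059O14Rik showed the same shape at a higher level. It lay at 8.97 to 9.19 in INPUT, 7.07 to 7.83 in WASH and 8.58 to 9.21 in ELUTED. Its WASH minus INPUT difference of -1.72 (SE 0.07, limma adjusted p = 1.13e-05) was the lowest of the 304, and ELUTED was also lower than INPUT, by a difference of -0.26.

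The gene 2610005M20Rik, without a RefSeq match, was instead raised in ELUTED itself. Its level was 7.27 to 7.62 in INPUT, 6.52 to 7.12 in WASH and 8.10 to 8.71 in ELUTED, with no overlap between the 3 fractions. ELUTED minus INPUT was 1.01 (SE 0.09) and ELUTED minus WASH 1.49 (SE 0.10), the highest and the second highest of the 304. The lncRNAs 1700066C05Rik (1.29), A330076H08Rik (1.22), 2610037D02Rik (1.19) and 4930419G24Rik (1.02) were likewise higher in ELUTED than in WASH. So were the unmatched 4930578G10Rik (1.30), 4930456A14Rik (1.26) and C730034F03Rik (1.09). Genes were listed here only if all 6 animals lay on 1 side of 0, so that agreement was fixed by the choice. WASH levels of 1700066C05Rik lay under 6.5, with a median of 5.84. A330076H08Rik had median levels of 9.32 in INPUT, 8.52 in WASH and 9.70 in ELUTED.

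Beside 2610005M20Rik, the largest ELUTED minus INPUT differences were those of C730034F03Rik (0.91), the lncRNA A930013F10Rik (0.86), the transcribed pseudogene 2210409E12Rik (0.62) and the lncRNA 4931413K12Rik (0.60). The last was at the threshold only through ELUTED, with medians of 6.46 in INPUT, 6.09 in WASH and 6.99 in ELUTED, so its place among the largest differences is a description. In A930013F10Rik the WASH level did not pass the test against INPUT (-0.08, adjusted p = 0.193 with limma). Positions against INPUT depend on the scaling of the arrays, so these values do not settle which fraction moved. D630045J12Rik, a coding gene also listed as Kiaa1549, had the largest ELUTED minus WASH difference of the coding genes at 0.71, with levels of 9.74 to 10.04 in INPUT and 10.35 to 10.62 in ELUTED. Its second probe set, at a level of 7.67, gave -0.02.

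The 10 transcripts furthest towards WASH were 8 coding genes and 2 lncRNAs. The coding gene 0610009B22Rik had the lowest ELUTED minus WASH difference of the set. It was -1.43 and -1.29 in WT, -1.40 and -2.06 in CPEB4 GT/+ and -2.12 and -3.002 in CPEB4 KO, with a fitted mean of -1.88 (SE 0.13, limma adjusted p = 5.07e-05). Its level was 8.71 to 9.16 in INPUT, 9.35 to 9.68 in WASH and 6.68 to 8.26 in ELUTED, without overlap between the fractions, and ELUTED minus INPUT was the lowest of the 304 at -1.32. The other coding genes of this group were 2410004B18Rik (-1.46), 1700123O20Rik (-1.43), 1500009L16Rik (-1.40, also listed as OCC-1), 0610012G03Rik (-1.39), 1110059G10Rik (-1.38), 1110032A03Rik (-1.35) and 1600012H06Rik (-1.31). All 6 animals lay below 0 in each, as the choice of genes required. ELUTED levels lay under 6.5 in 1110059G10Rik and 1600012H06Rik, with medians of 5.89 and 6.08. A second probe set of 0610012G03Rik, at almost the same level (7.17 and 7.19), gave -0.23.

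**Figure D3:**
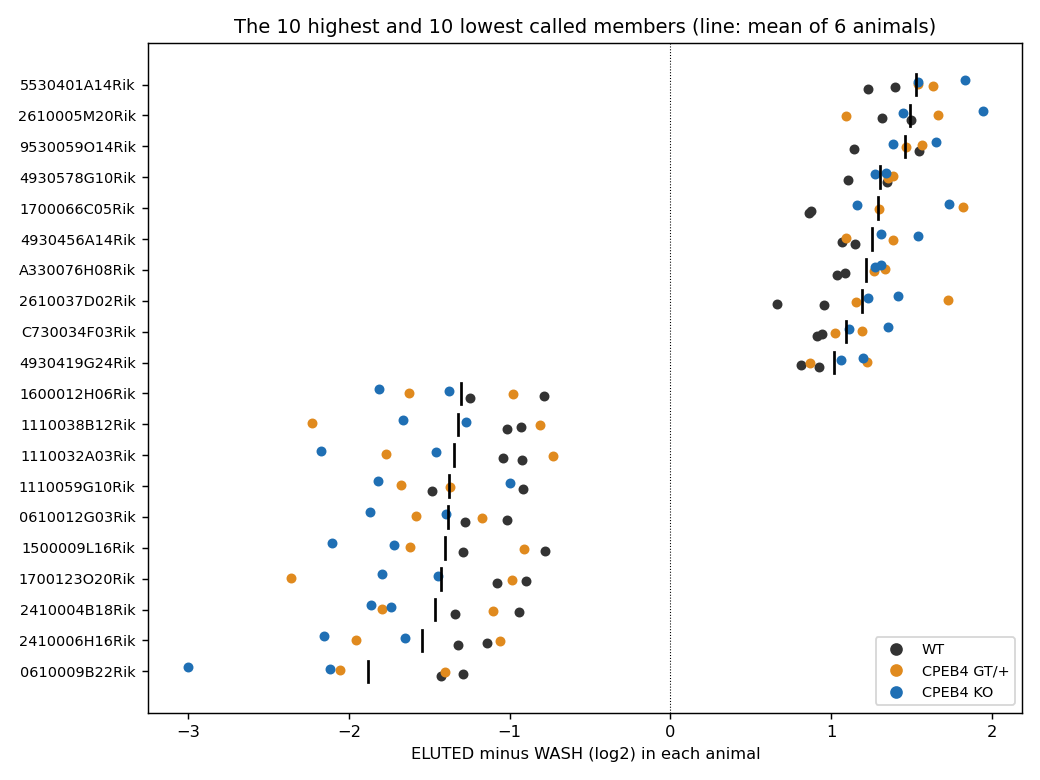
ELUTED minus WASH (log2, horizontal axis) in each of 6 animals, coloured by genotype, for the 10 RIKEN-named genes with the largest and the 10 with the lowest called differences. Black ticks are the means of 6 animals, from 1.53 for 5530401A14Rik to -1.88 for 0610009B22Rik. Genes with animals on both sides of 0 were left out by the choice of genes.

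Among WASH minus INPUT differences 1600012H06Rik had the highest at 0.83, followed by the coding 2010315B03Rik and 1600014C10Rik and the lncRNA 4632404H12Rik, all at 0.79. The last was at the threshold only through WASH, with medians of 6.43 in INPUT, 7.20 in WASH and 6.31 in ELUTED, and its probe sets gave ELUTED minus WASH values of -0.92 and 0.13. Other coding genes were low in ELUTED with little difference between WASH and INPUT. For 1810037I17Rik ELUTED minus INPUT was -1.05 and WASH minus INPUT 0.04 (limma adjusted p = 0.533), and for 4933434E20Rik, also listed as NICE-3, they were -1.04 and 0.05 (adjusted p = 0.435). The gene 0610010K14Rik, also listed as Bap18, had -0.83 and 0.05.

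The 2 lncRNAs among the 10 lowest both contain snoRNA genes in RefSeq, and they were chosen for a closer description after their values had been seen. No strand was listed for the snoRNA genes, so a gene is called a snoRNA host below by position only. The gene 2410006H16Rik contains Snord49a, Snord49b and Snord65. Its ELUTED minus WASH difference was -1.32 and -1.14 in WT, -1.06 and -1.96 in CPEB4 GT/+ and -1.65 and -2.15 in CPEB4 KO, with a fitted mean of -1.55 (SE 0.13). The gene 1110038B12Rik contains 2 snoRNA genes, among them Snord52, and its difference was -1.32 (SE 0.16), from -2.23 to -0.81 over the animals. In both genes WASH lay above INPUT (0.65 and 0.63) and ELUTED below it (-0.89 and -0.69).

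Of 4 RIKEN-named genes that contain a snoRNA gene, the coding 2410002F23Rik was also lower in ELUTED (-0.69), and the lncRNA 2700038G22Rik, which contains Snord93, was higher (0.32, limma adjusted p = 0.00439). Of 10 other lncRNAs with snoRNA genes 5 were lower, beside 48.5% of all genes. Snhg8 (-1.81), Gas5 (-1.64), Snhg6 (-1.40), Snhg5 (-1.13) and Zfas1 (-0.64) were lower. Snhg16 (0.24) and Ipw (0.29) were higher, and Snhg17 (-0.21), Rian (-0.14) and Snhg11 (-0.06) did not pass the test.

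Transcripts of several snoRNA hosts are known to begin with a run of pyrimidines, as mRNAs of ribosomal proteins do. The first bases of the 3 lncRNA hosts are shown to let that feature be read beside the values: 60 bases before and 40 after the RefSeq start, assembly GRCm38.p6, transcribed strand, with capitals for the longest run of at least 7 C or T within 10 bases before and 12 bases after the start.
2410006H16Rik, chr11:62602817-62602916, plus strand: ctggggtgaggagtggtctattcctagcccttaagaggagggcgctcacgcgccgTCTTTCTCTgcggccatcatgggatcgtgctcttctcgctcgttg
1110038B12Rik, chr17:34952432-34952531, minus strand: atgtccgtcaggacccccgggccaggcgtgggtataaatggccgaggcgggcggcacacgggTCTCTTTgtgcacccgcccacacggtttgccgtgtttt
2700038G22Rik, chr5:23850537-23850636, plus strand: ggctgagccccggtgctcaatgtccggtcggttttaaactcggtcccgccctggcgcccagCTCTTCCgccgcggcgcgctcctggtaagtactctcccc
The runs are 9, 7 and 7 bases long. Only the transcribed strand was searched, and such a run stood in 13.4% of the 27025 RefSeq start windows, in 10.8% of the 212 of RIKEN-named genes with a window and in 11.02% of the 118 of lncRNAs among them. The fourth host, the coding 2410002F23Rik, holds no such run. Of the 3 hosts with a run 2 lay on the WASH side and 1 on the ELUTED side, and the host without one lay on the WASH side.

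By RefSeq positions 5 RIKEN-named genes contain a microRNA hairpin. The lncRNA A330023F24Rik contains Mir29b-2 and Mir29c and had the lowest difference of the 5. It was -1.16 and -0.57 in WT, -0.68 and -1.47 in CPEB4 GT/+ and -1.03 and -1.38 in CPEB4 KO, with a fitted mean of -1.05 (SE 0.13, limma adjusted p = 0.00019). Its level was 8.78 to 9.21 in INPUT, 8.87 to 9.54 in WASH and 7.71 to 8.33 in ELUTED, so ELUTED lay below both without overlap. The mature 3p microRNAs cut from this host are given because they show that both hairpins make the same seed, bases 2 to 8, in capitals (RefSeq, GRCm38.p6).
miR-29b-3p: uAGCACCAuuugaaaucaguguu
miR-29c-3p: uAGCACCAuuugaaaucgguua
The arrays measure the host transcript and not the mature microRNAs. The other hosts were 2900076A07Rik with Mir1839 (-0.44, limma adjusted p = 0.0266), 2700081O15Rik with Mir6991 (-0.44, adjusted p = 0.00165), 3110082I17Rik with Mir339 (0.22, adjusted p = 0.0765) and 5031439G07Rik with Mir1249 (-0.15, adjusted p = 0.102).

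**Figure D4:**
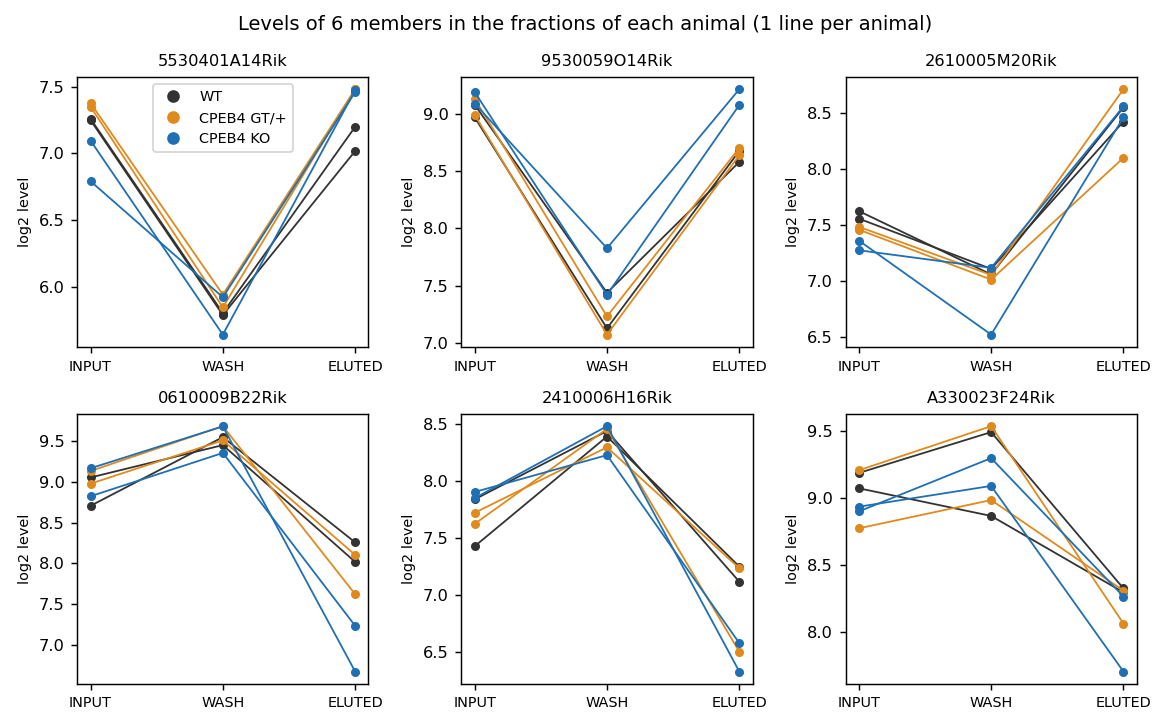
Log2 level of 6 RIKEN-named genes in INPUT, WASH and ELUTED, 1 line per animal, coloured by genotype. In the top row (5530401A14Rik, 9530059O14Rik, 2610005M20Rik) WASH is the lowest fraction in every animal, and in the bottom row (0610009B22Rik, the snoRNA host 2410006H16Rik and the microRNA host A330023F24Rik) ELUTED is the lowest.

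Position in the genome was taken from RefSeq for the 264 matched genes. Of these, 63 overlap a gene on the opposite strand, 14 overlap one on the same strand, 31 start within 1000 bases of a gene that runs the other way and 80 stand apart, while the strand of the gene or its neighbour was not listed for the rest. The 44 antisense lncRNAs had 27 higher and 7 lower with a median of 0.33, near that of the 33 lncRNAs that stand apart (17 higher, 12 lower, median 0.26). The 19 lncRNAs with a divergent start had 7 higher and 6 lower with a median of 0.09, and the 12 coding genes with one had 1 higher and 8 lower with a median of -0.85.

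Over 53 opposite-strand pairs with a tested partner the RIKEN-named gene had the higher ELUTED minus WASH difference in 35. Medians were 0.22 for the RIKEN-named genes and -0.21 for the partners. For all RIKEN-named and all other genes at a level of at least 6.5 they were 0.15 and -0.29. A gene with several partners was counted once for each, so the pairs are not independent. Some partners lay below 6.5 or were RIKEN-named themselves. The lncRNA 5530401A14Rik (1.53) overlaps Asic2, an acid-sensing ion channel (-0.49, SE 0.08), and 2610020C07Rik (0.93) overlaps Gspt1, a translation termination factor (-0.43, SE 0.11). Acin1, which encodes a splicing-associated protein and had -0.42, overlaps both the coding 1700123O20Rik (-1.43) and the lncRNA 4930579G18Rik (0.92), which lie on opposite sides of it. Whether the amplified cDNA kept its strand was not given in the sources used here, so the signals of an antisense gene and its partner cannot be told apart where a probe lies in both.

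The 5 RIKEN-named genes with the highest probe set levels, which do not rank abundance between genes, had ELUTED minus WASH differences between -0.49 and 0.34. The coding 1700008O03Rik lay at 12.21 to 12.32 in INPUT, 12.09 to 12.26 in WASH and 12.32 to 12.70 in ELUTED, with an ELUTED minus WASH difference of 0.34 (SE 0.07). The lncRNA 2610203C22Rik (mean level 11.66) had -0.37, 1700037H04Rik (11.45) 0.19 and 6330403K07Rik (10.57) -0.49. For 4833439L19Rik (10.56), also listed as P33monox, the difference was 0.03 (limma adjusted p = 0.749). The 5 genes nearest 0 were C030006K11Rik (-0.002), 3830408C21Rik, 1700086L19Rik, 4931428F04Rik and 4933431E20Rik, with sizes up to 0.01.

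A gene's value can rest on its probe set. Of 47 RIKEN-named genes with at least 2 probe sets at a level of 6.5 or more, 23 had the same sign of ELUTED minus WASH on all and 24 did not, and 19 had a range above 0.58. The widest ranges were in coding genes. At 1110008P14Rik the 3 probe sets gave -1.77, -1.09 and 0.20, at 4930402H24Rik 2 gave -0.21 and 1.26, at 4933434E20Rik 3 gave -1.17, -1.09 and 0.20, at 0610010F05Rik 2 gave -1.55 and -0.28, and at 4833420G17Rik 4 ran from -0.70 to 0.55. For each of these the value used elsewhere is that of the probe set with the highest mean. The 273 genes on probe sets without an a, s or x suffix, which marks probes shared between transcripts, had a median of 0.20, and the 31 with one had -0.28.

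The last comparisons asked whether the RIKEN-named transcripts differed with Cpeb4 genotype. Cpeb4, which encodes a cytoplasmic polyadenylation element binding protein, lay in INPUT at 8.15 and 7.62 in WT, 7.31 and 7.002 in CPEB4 GT/+ and 6.62 and 6.91 in CPEB4 KO, without overlap between genotypes (CPEB4 KO minus WT -1.12, SE 0.19, limma adjusted p = 0.253). None of the 304 genes was called in any of the 6 genotype comparisons, beside 0% of all 12822 genes in each. At an unadjusted p under 0.05 (limma) the INPUT comparisons held 45 of the 304 genes for CPEB4 KO against WT, 11 for CPEB4 GT/+ against WT and 29 for CPEB4 KO against CPEB4 GT/+, beside 10.9%, 3.42% and 8.13% of all genes. For ELUTED minus WASH they held 21, 3 and 10, beside 6.17%, 0.897% and 1.85%. With 2 animals a group an exact test cannot go below p = 0.333, and in bulk tissue fewer cells of a type and less RNA per cell cannot be told apart.

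In INPUT 1 RIKEN-named gene combined a lack of overlap between CPEB4 KO and WT animals with a log2 difference of at least 0.58, beside 1.07% of all genes. This was D130007C19Rik, with levels of 6.85 and 6.54 in WT, 6.57 and 6.56 in CPEB4 GT/+ and 6.19 and 5.97 in CPEB4 KO (difference -0.61, SE 0.13, limma adjusted p = 0.334). The other pairs of genotypes held 0 such genes, beside 0.0546% for CPEB4 GT/+ against WT and 1.05% for CPEB4 KO against CPEB4 GT/+. Of the 45 genes at an unadjusted p under 0.05 in CPEB4 KO against WT, 12 were higher and 33 lower, beside 934 higher and 470 lower of all 12822 genes. The lncRNAs, 139 of the 304, made up 20 of the 33, and the 107 other lncRNAs at that level had 1 higher and 19 lower.

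For ELUTED minus WASH 16 genes met both conditions in CPEB4 KO against WT, 5 higher and 11 lower, beside 5.57% of all genes. Against WT, CPEB4 GT/+ held 2 (0.46% of all genes), and CPEB4 KO against CPEB4 GT/+ held 7 (0.866%). The 2 were the lncRNAs 1700066C05Rik (0.69) and 2610037D02Rik (0.63). The lncRNA 4930515G01Rik had 0.13 and 0.46 in WT, 0.30 and 0.35 in CPEB4 GT/+ and 1.13 and 1.05 in CPEB4 KO, a difference of 0.79 between CPEB4 KO and WT (SE 0.19, limma adjusted p = 0.756). Both CPEB4 KO animals lay above the other 4. The lncRNAs 1700109K24Rik (0.89), 2610020C07Rik (0.59) and 1700066C05Rik (0.58) and the coding 4930562C15Rik (0.59) each had at least 1 CPEB4 GT/+ animal within or above the range of the CPEB4 KO animals. On the other side the coding 0610009B22Rik (-1.20), 1500009L16Rik (-0.88), 1110008P14Rik (-0.83), 1600014C10Rik (-0.80) and 0610010K14Rik (-0.71) lay lower in CPEB4 KO than in WT, each with an adjusted p = 0.756 by limma.

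The animals differed in how widely their 2 fractions were separated. The SD of ELUTED minus WASH over all 12822 genes was 0.49 and 0.41 in WT, 0.41 and 0.79 in CPEB4 GT/+ and 0.60 and 0.76 in CPEB4 KO, and over the 304 genes it was 0.57 and 0.48, 0.50 and 0.90, and 0.66 and 0.86. CPEB4 GT/+ animal 2 lay closer to the CPEB4 KO animals than to CPEB4 GT/+ animal 1 in this measure. Set against the mean of the CPEB4 KO animals, it also did so in 9 of the 10 genes named above for CPEB4 KO against WT. The exception was 4930515G01Rik. Markers of tissue next to the dissected part also varied between INPUT arrays. Ttr of the choroid plexus lay at 11.24 and 8.93 in WT, 7.84 and 11.48 in CPEB4 GT/+ and 11.40 and 11.82 in CPEB4 KO. Pituitary Gh lay at 7.59 and 6.86 in WT and at 5.83 to 6.44 in the other 4 animals, and hypothalamic Pmch at 9.23 in WT animal 1, 8.31 in CPEB4 KO animal 1 and 5.16 to 5.36 in the rest. The part of the separation or of these markers in the genotype differences was not tested.

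**Figure D5:**
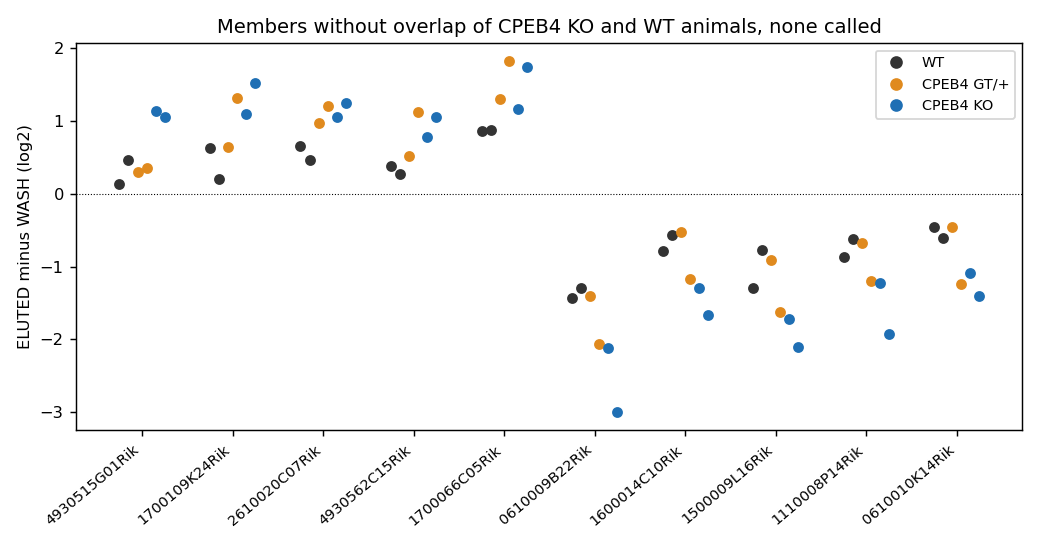
ELUTED minus WASH (log2, vertical axis) in each animal, coloured by genotype, for the 5 RIKEN-named genes with the smallest unadjusted p on each side among those without overlap between CPEB4 KO and WT animals. The 0610009B22Rik values run from -3.002 in a CPEB4 KO animal to -1.29 in a WT animal, and none of these genes passed the adjusted test.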

How the data were processed

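The deposited values are log2 probe set levels that the authors made with RMA, per the submitters' processing notes, whose version was not given in the sources used here. Of 45141 probe sets 28898 carry 1 gene symbol, and 1 probe set stood for each gene, that of the highest mean over arrays. Of all genes, the lowest 25% (mean under 5.52) were left out, which kept 12822. Differences between fractions were formed within each animal and fitted with genotype means over all 6 animals in limma 3.58.1 (R 4.3.3), which left 3 residual degrees of freedom, with Benjamini-Hochberg adjustment over all genes kept and two-sided tests. The fit was also run on simulated data in which arrays were independent and animals had equal spread. That setting does not cover the unequal separation of the fractions between these animals. Genes were named by level, distance from 0, position at the threshold, disagreement of probe sets and size of called difference. For the last, all 6 animals had to lie on 1 side of 0. Exceptions are marked in the text. The members and lists were chosen with earlier results of these data known. The labels do not tie equal animal numbers across genotypes, so genotype comparisons had no block, and p-values measure only the spread between these samples. The precision is limited by the number of arrays. Gene types, positions and sequences are from RefSeq, GRCm38.p6.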

Additional observations from a re-analysis of the deposited data

Results flagged for a closer look

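In 8 of 80 groups of 6 animals examined, 1 animal stood apart from the other 5 by Dixon's criterion, which chance gives in about 5% of groups. For ELUTED minus INPUT, C730034F03Rik had 0.57 in WT animal 1 against 0.893 to 1.08 in the others, and B930095G15Rik had 0.883 in CPEB4 GT/+ animal 2 against 0.385 to 0.505. For WASH minus INPUT, CPEB4 GT/+ animal 2 was high in 1600012H06Rik (1.31 against 0.578 to 0.83) and in 4632404H12Rik (1.352 against 0.569 to 0.788). CPEB4 KO animal 1 was nearer 0 in 5530401A14Rik (-0.871 against -1.505 to -1.437) and in 4930419G24Rik (-0.466 against -0.957 to -0.843). For ELUTED minus WASH, 3830408C21Rik had 0.225 in CPEB4 KO animal 2 against -0.078 to 0.031, and 4931428F04Rik had -0.276 in CPEB4 GT/+ animal 1 against -0.011 to 0.146.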

How the results depend on the processing

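The ELUTED minus WASH distance between lncRNA and coding medians ran from 0.33 to 0.65 over all settings tried, while positions relative to 0 moved with the scaling. The cause of the changes below was not tested. When the hybridisation controls set the array scale, ELUTED minus WASH medians were -0.34 (all 304), -0.19 (lncRNA) and -0.73 (coding) with 26 higher and 153 lower, ELUTED minus INPUT medians were -0.11, -0.073 and -0.31 with 6 higher, WASH minus INPUT medians were 0.23, 0.13 and 0.36 with 182 higher and 31 lower, and 1 gene was called higher in INPUT of CPEB4 KO against CPEB4 GT/+. There 1700008O03Rik (-0.15), 1700037H04Rik (-0.30), 3830408C21Rik (-0.48), 4833439L19Rik (-0.46), 4931428F04Rik (-0.48), 4933428G20Rik (-0.0077) and 4933431E20Rik (-0.48) turned below 0 for ELUTED minus WASH. Centring arrays on their medians gave ELUTED minus WASH medians of 0.027 (all) and -0.36 (coding) and WASH minus INPUT medians of 0.032 (all), -0.069 (lncRNA) and 0.16 (coding), with 3830408C21Rik, 4931428F04Rik and 4933431E20Rik at -0.11 and 4833439L19Rik at -0.088. Quantile normalization gave coding medians of -0.040 (ELUTED minus WASH), 0.0031 (ELUTED minus INPUT) and 0.041 (WASH minus INPUT) and a WASH minus INPUT median of -0.069 over all, with 1700086L19Rik at 0.10, 3830408C21Rik at -0.043 and C030006K11Rik at 0.14. Relative to other genes of the same level, ELUTED minus WASH medians were 0.28 (all) and 0.083 (coding) with a type distance of 0.33, the ELUTED minus INPUT coding median was 0.036, and WASH minus INPUT medians were -0.15 (all), -0.28 (lncRNA) and -0.037 (coding) with 63 higher, with 0610010F05Rik at 0.10, 1700086L19Rik at 0.29, 3830408C21Rik at -0.039 and C030006K11Rik at 0.30. The mean of all probe sets gave coding medians of -0.14 (ELUTED minus WASH) and -0.010 (ELUTED minus INPUT), with 2610203C22Rik at 0.16 and 4930402H24Rik at 0.53. A level threshold of 6 gave ELUTED minus WASH medians of 0.26 and -0.10 (coding) with 219 higher, an ELUTED minus INPUT coding median of -0.037, and a WASH minus INPUT median of -0.091 with 173 lower. A threshold of 7 and leaving out the lowest 50% of genes both gave an ELUTED minus WASH median of -0.017 (79 and 78 higher), an ELUTED minus INPUT coding median of -0.15 (58 higher in both), and WASH minus INPUT medians of 0.044 (all) and 0.23 (coding), a type distance of -0.32 and 59 and 60 lower.

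Leaving out each animal in turn gave 35 (without WT 1) to 109 genes called higher for ELUTED minus INPUT, 0 to 2 called higher in INPUT of CPEB4 KO against WT, and 0 to 1 higher and 0 to 1 lower in INPUT of CPEB4 KO against CPEB4 GT/+, the calls standing without CPEB4 KO 2. The ELUTED minus WASH differences that crossed 0 were those of 4833439L19Rik (-0.028 to 0.090), C030006K11Rik (-0.030 to 0.026), 3830408C21Rik (-0.041 to 0.060), 1700086L19Rik (-0.078 to 0.056), 4931428F04Rik (-0.059 to 0.082) and 4933431E20Rik (-0.037 to 0.061). The labels do not say whether same-numbered animals of different genotypes share more than a number. Correlations of their deviations ran from -0.33 to 0.51, the highest for CPEB4 GT/+ and CPEB4 KO in ELUTED minus WASH. With the replicate block 0 of the 304 genes were called in each of the 6 genotype comparisons, and without the animal as a replicate block the fraction comparisons had 147 higher and 103 lower, 107 and 71, and 83 and 93.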

Other observations

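The coding gene 1300017J02Rik, chosen after its values were seen, had INPUT levels of 6.60 and 6.53 in WT, 6.37 and 6.55 in CPEB4 GT/+, and 8.43 and 6.499 in CPEB4 KO. CPEB4 KO animal 1 alone was high, and the CPEB4 KO minus WT difference of 0.90 did not pass the test (limma adjusted p = 0.532).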
